A study of Rattus norvegicus with 4 samples.

Results

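The genes Jun, Junb, Jund, Fos and Fosb encode subunits of AP-1, a transcription factor that binds DNA as a dimer. Their chromosomal surroundings were described by Hi-C in primary rat Schwann cells, the glia of peripheral nerve. Each gene was followed in a window of 1 Mb of the rn6 build, and the 5 windows hold 500 of the 277880 bins of 10 kb on the numbered chromosomes and X. The windows span chr5:113500001-114500000 for Jun, chr19:25600001-26600000 for Junb, chr16:20000001-21000000 for Jund, chr6:108800001-109800000 for Fos and chr1:79700001-80700000 for Fosb. Of the 500 bins, 487 held enough cis contacts, those within 1 chromosome, to be used, and 11 of the 13 bins left out lie in the Junb window. The bin of a gene is the 10 kb bin that holds its stated position, and "gene bins" below means that bin and its 2 neighbours. The gene bins are chr5:114000001-114030000 for Jun, chr19:26080001-26110000 for Junb, chr16:20470001-20500000 for Jund, chr6:109290001-109320000 for Fos and chr1:80200001-80230000 for Fosb. No rn6 annotation was used, so exons, introns and untranslated regions inside these bins are not given.

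Cells from sciatic nerve were cultured with forskolin and heregulin-β1 and infected for 48 hours at 2 units of virus per cell. Lenti-AS overexpressed an antisense RNA of the Egr2 promoter, and Lenti-GFP was the control virus. By the study's methods the antisense RNA was cloned into pLVX-DsRed-Express2-N1 and the control was pLVX-AcGFP1-N1, so both groups received a lentivirus but also differed in the vector and its fluorescent protein, which cannot be told apart from the antisense RNA here, and no uninfected cells are analysed here. Each group had 2 libraries, and since the labels do not tie them to separate animals or cultures, the p-values measure the spread between these libraries, which may be technical. The study asked whether the antisense RNA reorganizes the genome, with AP-1 among the networks it followed. Hi-C holds no expression, so neither the Schwann cell label nor the overexpression could be checked, and the levels of the 5 AP-1 mRNAs are not known from these data.

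Jun proteins pair with each other or with Fos proteins, whereas Fos proteins need a Jun partner. Fos, Fosb and Junb are immediate early genes, switched on within minutes by growth signals, while Jund is expressed more steadily. In Schwann cells Jun, the gene of c-JUN, is known for driving the repair state that follows nerve injury and for opposing Egr2, the driver of myelination. Hi-C counts how often 2 places in the genome are ligated together, and enhancers of immediate early genes can lie far from their promoters, so the contacts of these bins outline the surroundings in which such elements could act.

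The libraries held 94956821 and 110770015 contacts in Lenti-GFP and 74811640 and 70488877 in Lenti-AS. Both Lenti-AS libraries were thus shallower, and levels below are contacts per 1000000 contacts of the library or are set against the mean at the same distance. Libraries of the same group differed from each other by more than counting error, with a chi-square per bin of 1.06 in Lenti-GFP and 1.03 in Lenti-AS over 245274 and 245211 bins, and they were treated as separate samples. Between libraries of different groups the chi-square per bin was larger, from 1.20 to 1.42, and the cause was not tested.

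The promoters of Jund and Junb are shown because these genes had the most contacts nearby, and so that the letters around their starts can be read beside these values. They come from RefSeq on the GRCr8 build, are the 250 bases before the annotated start, and read 5′ to 3′ on the strand of the gene. The table also holds Fosb. Jun and Fos have no entry in it. Capitals mark the CCAAT box, the GC box (GGGCGG) and the cAMP response element (TGACGTCA), each searched on both strands. The Jund promoter is chr16:18769772-18770021 on the minus strand and the Junb promoter is chr19:40080876-40081125 on the plus strand of GRCr8.
Jund: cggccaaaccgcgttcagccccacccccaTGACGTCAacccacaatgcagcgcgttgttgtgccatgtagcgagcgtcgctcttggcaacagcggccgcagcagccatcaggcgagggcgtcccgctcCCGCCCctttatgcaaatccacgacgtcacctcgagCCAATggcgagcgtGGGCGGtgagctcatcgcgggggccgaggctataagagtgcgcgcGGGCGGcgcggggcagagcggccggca
Junb: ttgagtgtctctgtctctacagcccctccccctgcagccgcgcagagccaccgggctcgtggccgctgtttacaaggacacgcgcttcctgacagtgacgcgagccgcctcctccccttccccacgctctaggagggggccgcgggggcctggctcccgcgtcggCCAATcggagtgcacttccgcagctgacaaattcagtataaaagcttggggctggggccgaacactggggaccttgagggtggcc

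Both promoters hold CCAAT at nearly the same place, from 86 to 82 bases before the start in Jund and from 85 to 81 in Junb. CCAAT was found in 34.0% of the 33469 promoters of this length. Jund alone of the pair holds TGACGTCA from 221 to 214 bases before the start, and 1.59% of all promoters hold it. Jund also holds the GC box at 3 places, and 30.5% of promoters hold at least 1. TGACTCA, the AP-1 element, was found in 4.05% of all promoters and in none of these windows of Jund, Junb and Fosb. The GC content was 68.4% in Jund and 66.0% in Junb against 43.6% in Fosb and a median of 51.2% over all promoters. A match is a description of the letters and not of binding.

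In the gene order of GRCr8, Fos is followed directly by Jdp2 and Batf, which also encode AP-1 family proteins. Jun lies between Mysm1 and Fggy, Junb between Hook2 and Prdx2, Jund between Iqcn and Lsm4, and Fosb between Rtn2 and Ercc1. These names give neighbours only, since GRCr8 positions were not carried over to rn6.

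The first question was how far each gene reaches along its chromosome. The 5 genes differed most at long distances, and Jun stood apart from the other 4. The 3 bins of Jun held 7.01 and 6.81 contacts per 1000000 contacts of the library at 510 kb to 2 Mb under Lenti-GFP, and Lenti-AS gave 6.87 and 6.57. In every library this was above the level of the other genes, whose highest value was 1.13, in Junb. Summed over the 4 libraries, Jun had 2397 contacts in this band, 3.56 times the median of 3 neighbouring bins over the genome, and 99.2% of 230920 such positions had fewer. Junb had 369, Fos 332, Fosb 276 and Jund 243, all below the genome median of 673. At 210 to 500 kb Jun again led, with 1656 contacts or 2.55 times the genome median, followed by Fos with 876 and Jund with 414, while Fosb with 224 and Junb with 205 had 0.345 and 0.316 times the median of 649. These comparisons between genes are between bins, which also differ in how many contacts they hold in all.

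Fos had its own preferred range. At 60 to 200 kb its bins held 9.57 and 9.13 contacts per 1000000 in Lenti-GFP and 9.76 and 9.93 in Lenti-AS. Its 3350 contacts over the 4 libraries were 3.30 times the genome median, and 99.98% of positions had fewer. The next gene in this band was Jun with 1486 contacts, 1.46 times the median, and Jund, Fosb and Junb had 1272, 1078 and 1045, close to the median of 1015.5.

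Jund and Junb were the genes with most contacts nearby. At 20 to 50 kb Jund had 1899 contacts and Junb 1769, which were 1.93 and 1.80 times the genome median, with 97.8% and 95.8% of positions lower. The Jund value per 1000000 contacts was 5.98 and 5.25 in Lenti-GFP and 5.40 and 4.91 in Lenti-AS, and the Junb value was 5.18 and 4.71 against 5.19 and 5.21, so these genes overlapped and their order is not settled. Fosb had 1507 contacts, Jun 1184 and Fos 1169. Contacts at 20 to 50 kb made up between 50.7% and 55.3% of all Junb contacts from 20 kb to 2 Mb over the 4 libraries, but only between 16.0% and 18.5% of those of Jun.

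**Figure D1:**
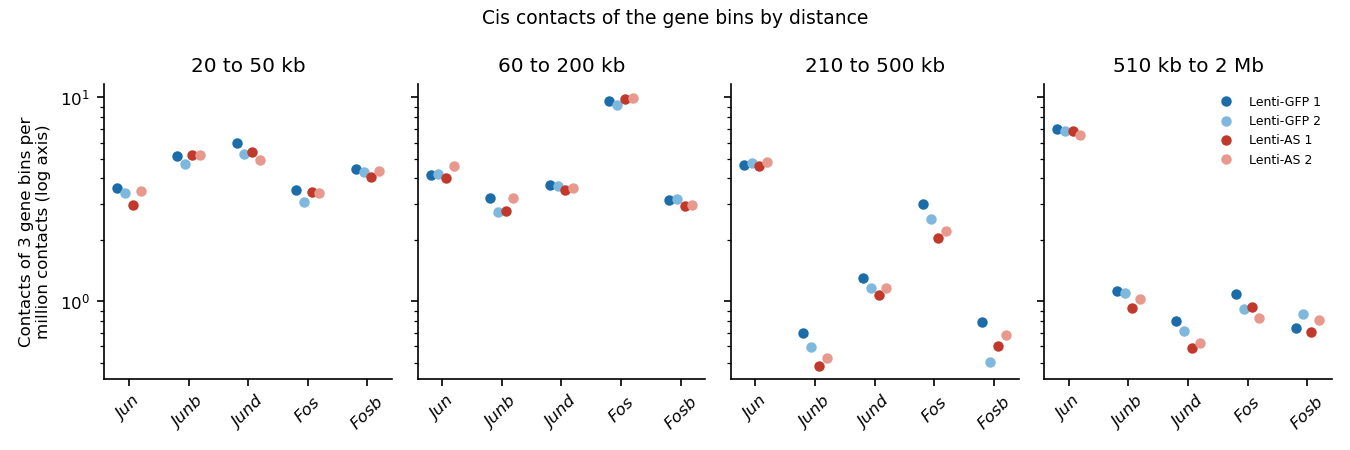
Contacts of the 3 gene bins per 1000000 contacts of the library (log axis) in 4 bands of distance, with 1 point per library for Lenti-GFP (blue) and Lenti-AS (red). Jun lies above the other genes from 210 kb to 2 Mb, Fos lies above them at 60 to 200 kb, and within each gene the libraries of both groups lie close together.

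The bins were then tested between the groups. Cis contacts of each 10 kb bin were compared in each band with edgeR's quasi-likelihood test and Benjamini-Hochberg adjustment over 246245 bins, of which 0.189%, 0.132%, 0.0272% and 0.0183% passed an adjusted p of 0.05 from the shortest band to the longest. None of the 60 tests at the gene bins passed, and 3 of them had an unadjusted p below 0.05, 1 in each of the 3 shorter bands, where 11%, 10.3% and 8.73% of all bins did (8.45% in the longest). DESeq2 called none either. The lowest adjusted p in edgeR's test was 0.234, in a bin of Fos at 210 to 500 kb, where the log2 difference was -0.62. In this band the 3 Fos bins held 3.01 and 2.54 contacts per 1000000 in Lenti-GFP and 2.05 and 2.21 in Lenti-AS. The groups did not overlap there, but the two-sided exact permutation p over the 4 libraries was 0.333, the smallest that 2 libraries against 2 can give. The log2 differences of the 3 Jun bins ran from -0.23 to 0.13 over the 4 bands. In Junb, Jund and Fosb the bins at 210 kb and beyond ran from -0.50 to 0.50, on counts of few contacts, so that a small change would not be detectable there.

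In the rest of the windows 3 bins passed in a band. In the Junb window chr19:25750001-25760000, 340 kb to the left of the gene bin, rose by 0.75 on the log2 scale at 20 to 50 kb (edgeR adjusted p = 0.00228), from 86.3 and 76.5 scaled contacts to 130 and 143. In the same window chr19:26410001-26420000 rose by 0.73 at 60 to 200 kb (edgeR adjusted p = 0.0453), from 56.7 and 48.0 to 87.5 and 84.9. In the Jund window chr16:20740001-20750000, 260 kb to the right of the gene bin, changed by -0.64 at 20 to 50 kb (edgeR adjusted p = 0.00474), from 192 and 158 to 128 and 93.9 scaled contacts. Left and right stand for lower and higher positions on rn6 throughout. DESeq2 called none of these 3 bins (adjusted p = 1.00 in each), and each lost its call in edgeR's test when a single library was left out. For chr19:25750001-25760000 this was Lenti-GFP 2 (adjusted p = 0.0827) or Lenti-AS 2 (0.177), for chr16:20740001-20750000 Lenti-GFP 1 (0.214) or Lenti-AS 2 (0.431), and for chr19:26410001-26420000 any of the 4 (0.129 to 0.314).

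Contact profiles from the gene bins showed where these contacts go. Observed contacts in steps of 50 kb were divided by the number that the genome mean at each distance gives. Log2 differences, and whether the groups lay apart, were taken after adding 0.5 contacts to both, so they can differ from the printed ratios. The addition weighs more where contacts are few, and so more in the shallower Lenti-AS libraries. Where the ratio is below 1 it raises their values more, so a step without contacts in any library comes out higher in Lenti-AS. Jun reached almost entirely to the right. Of its contacts from 20 kb to 2 Mb, 84.2% and 82.3% lay to the right in Lenti-GFP and 84.9% and 84.1% in Lenti-AS, and beyond 510 kb the right side held between 98.1% and 99.5% in every library. On that side the ratio was higher further out but not at every step, with 1.46 at 50 kb, 2.15 at 200 kb, 8.33 at 500 kb, 5.17 at 550 kb, 10.1 at 700 kb, 7.14 at 750 kb and 21.7 at 850 kb, and then dropped to 3.49 at 950 kb and 1.59 at 1050 kb. A smaller rise followed at 1250 kb, where the ratio was 3.49 on 39 contacts and lay between 2.99 and 4.04 in the 4 libraries, and from 1300 kb on it was between 0.21 and 1.01. The peak at 850 kb was seen in every library, at 21.7 and 23.5 in Lenti-GFP and 21.1 and 19.3 in Lenti-AS, lower in Lenti-AS by a log2 difference of -0.21. Lenti-AS was also lower at 650 kb, by -0.63 on 164 contacts, and higher at 800 kb, by 0.38 on 308 contacts, with the groups apart at each of these 3 steps. In all, the groups lay apart in 14 of 39 steps on the right, 6 of them higher in Lenti-AS. On the left, where the median ratio was 0.12, it was 18 of 34, 15 of them higher. Such a split of 2 libraries against 2 has an exact permutation p of 0.333, so single steps are a description. The share of such steps over the genome was not counted, so the counts of steps are also a description, here and for the other genes. On the left the ratio was 1.30 at 50 kb and 0.53 at 100 kb, rose again to 0.91 at 350 kb on 56 contacts, where it was 1.31 and 0.98 in Lenti-GFP against 0.62 and 0.57 in Lenti-AS, and was 0.03 at 550 kb, where 1 contact was seen in the 4 libraries together. On the right the number of contacts over the 4 libraries stayed between 164 and 421 in each step from 200 to 900 kb. Distances and sides are those of the rn6 sequence, and whether its order is right around Jun and Junb was not tested, which bears on the one-sided reach of Jun and on the break to the right of Junb.

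Fos showed the opposite side and a shorter range. To the left the ratio was 6.51 at 100 kb and 7.49 at 150 kb and fell to 1.19 at 200 kb. At 150 kb it was 7.36 and 6.93 in Lenti-GFP and 7.88 and 8.17 in Lenti-AS, so both Lenti-AS libraries lay above both Lenti-GFP libraries, by 0.16 on the log2 scale. To the right the ratio was 0.32 at both 50 and 100 kb, then rose to 2.56 at 200 kb and 2.09 at 250 kb. At 250 kb it was 2.70 and 2.12 in Lenti-GFP and 1.33 and 2.02 in Lenti-AS, a log2 difference of -0.54, so the groups lay apart the other way. For Fos the groups lay apart in 15 of 37 steps on the left, 10 of them higher in Lenti-AS. On the right it was 16 of 37, 5 of them higher. Only between 24.6% and 28.9% of the Fos contacts from 20 kb to 2 Mb lay to the right.

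The other 3 genes had contacts close by and few further out. For Junb the ratio at 50 kb to the right was between 1.37 and 1.71 in the 4 libraries, and it was 0.01 at 200 kb, where 1 contact was counted in all 4 libraries, and the median over the right side was 0.05. On its left the ratio rose again at a distance, to 2.47 at 1300 kb, on 26 contacts in all. For Jund the ratio was 1.84 and 2.02 at 50 kb to the left and right, and beyond that no step reached 2. For Fosb the right side held 2.29 at 50 kb and 0.65 at 100 kb, and on the left 1.09 at 50 kb. The left side of Fosb also had a ratio of 3.02 at 1900 kb and 2.78 at 1500 kb, on 18 and 24 contacts. Bins without enough cis contacts leave gaps, and the right side of Junb has 17 steps against 34 to 39 on the other sides. To the left and right the groups lay apart in 18 and 24 steps for Jund, 12 and 7 for Junb and 17 and 13 for Fosb. Of these, 10 and 21, 6 and 7, and 10 and 7 were higher in Lenti-AS.

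**Figure D2:**
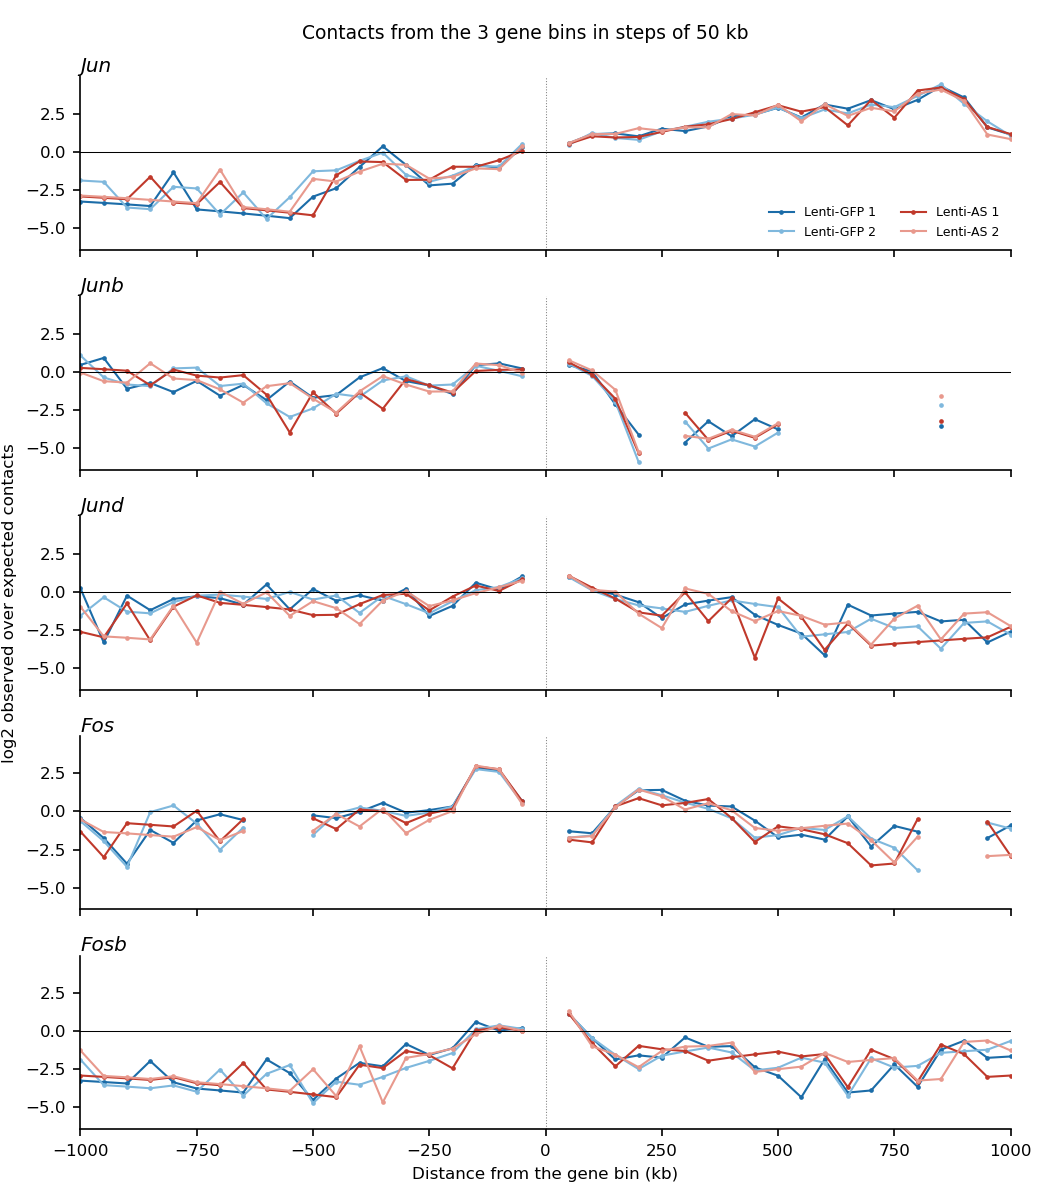
log2 of observed over expected contacts (with 0.5 contacts added to both) between the 3 gene bins and steps of 50 kb, plotted against the distance from the gene bin in kb, with 1 line per library and gaps where bins were left out. Jun has its highest ratio 850 kb to the right and is low on most of the left, Fos peaks at 100 to 150 kb on the left, and the lines of the 4 libraries run together wherever contacts are many.

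Loops, pairs of 10 kb bins with more contacts than distance and the cis contacts of both bins give, were called in each library. Of the 5 genes only Jun and Fos had loops with an end in the gene bins. For Jun 24 and 21 were called in Lenti-GFP and 23 and 14 in Lenti-AS, a mean of 22.5 ± 2.12 against 18.5 ± 6.36 (n = 2, SD; exact permutation test, two-sided p = 0.667). For Fos 12 were called in each of the 4 libraries. Over both genes the means were 34.5 ± 2.12 against 30.5 ± 6.36 (n = 2, SD; exact permutation test, two-sided p = 0.667). The deeper Lenti-GFP libraries also had more loops over the genome, 88561 and 102860 against 69210 and 65343. Once all libraries were thinned to the same number of contacts the genome counts turned to 63016 and 62143 in Lenti-GFP against 65428 and 65343 in Lenti-AS. The counts at the 2 genes were then 31 and 18 against 31 and 26, so that the difference turned from -4 to 4.

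All 48 different loops of Jun ran to the right, to 30 different bins from 430 to 900 kb away, and 43 of them were longer than 500 kb. All but 1 of the 17 different loops of Fos ran to the left, and their far ends lay in 8 bins. The loops of each gene therefore share ends and do not count as independent events. Of the Jun loops 3 were called in all 4 libraries and 27 in a single library, and of the Fos loops 6 and 1.

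The loops with most contacts over expectation lay where the profiles peaked. For Fos chr6:109160001-109170000 with chr6:109310001-109320000 held 61 and 49 contacts in Lenti-GFP and 51 and 52 in Lenti-AS, and the neighbouring pair chr6:109170001-109180000 with chr6:109310001-109320000 held 39 and 53 against 42 and 30. After scaling by distance the first gave 54.8 and 38.0 against 59.4 and 64.1, a log2 fold change of 0.43 ± 0.20 (SE, edgeR adjusted p = 0.803). For Jun chr5:114010001-114020000 with chr5:114840001-114850000 held 15 and 27 against 10 and 11 contacts, a log2 fold change of -0.47 ± 0.40 (SE, edgeR adjusted p = 0.803). The next, with chr5:114890001-114900000, held 18 and 8 against 14 and 9. None of these 4 loops passed. In the first Fos loop both Lenti-AS values lay above both Lenti-GFP values (unadjusted p = 0.0392 in edgeR's test), and in the Jun loop to chr5:114840001-114850000 the scaled groups, 13.6 and 20.7 against 11.7 and 13.5, lay apart by little. Both values leaned on Lenti-GFP 2, without which the log2 fold change was 0.17 in the Fos loop and -0.11 in the Jun loop, while without Lenti-GFP 1 they were 0.70 and -0.72.

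Over the whole windows 634 loops had an end in them, 303 in Junb, 165 in Jun, 100 in Fos, 59 in Jund and 7 in Fosb, so Junb had most loops in its window and none at its own bins. None of the 634 passed an adjusted p of 0.05 in edgeR's test, whose lowest value was 0.803, against 13 of 202577 loops over the genome or 0.00642%. At an unadjusted p below 0.05 there were 36, 23 higher and 13 lower in Lenti-AS, where 5.38% of all loops stood (2.95% higher and 2.44% lower), and DESeq2 called none after adjustment. Under the study's rule, an unadjusted p below 0.05 with a log2 fold change above 1 in size, 23 loops changed, 11 gained and 12 lost, or 3.63% of the 634 against 4.77% of all loops (2.49% gained and 2.28% lost). Only these thresholds are the study's, since the loop caller, the set of loops and the test differ here. The study itself reported fewer changed loops over the genome, most of them lost. Without Lenti-GFP 2 the count was 38, and with any other library left out it was between 24 and 34. It also depends on the tool, since under the same rule DESeq2 gave 4 of the 634, all of them gained and in the Junb window, and 0.422% of all loops (0.297% gained and 0.125% lost). Of those gained in edgeR's test 10 lay in the Junb window and 1 in the Fos window, and of the lost ones 4 lay in the Jun window, 4 in Fos, 2 in Junb and 2 in Jund. No loop with an end in the gene bins met the rule. The 634 loops had a median of 25 contacts over the 4 libraries together, so a modest change might not be detectable. Of the 634 loops, 301 were called in a single library and 92 in all 4. Each was tested on the same counts that had called it, so a loop could enter through the group where it was high. The counts of gained and lost loops are therefore a description.

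Pairs of 100 kb bins hold more contacts and were compared next. Of 730 pairs with an end in the windows 4 passed an adjusted p of 0.05 (0.548%), with 3 rises and 1 fall under Lenti-AS, against 0.329% of 307815 pairs over the genome (0.0939% higher and 0.236% lower). None of the 4 has the bin of a gene at an end. In the Jun window chr5:113500001-113600000 with the next bin to its right held 465 and 614 contacts in Lenti-GFP and 464 and 475 in Lenti-AS. After scaling by distance these were 419 and 479 against 539 and 582, so the groups did not overlap and the log2 fold change was 0.31 ± 0.07 (SE, edgeR adjusted p = 0.00824). The pair to its left, chr5:113400001-113500000 with chr5:113500001-113600000, rose by 0.34 ± 0.09 (SE, edgeR adjusted p = 0.0392), from 265 and 277 scaled contacts to 347 and 340. Both lie at the left end of the window, about 500 kb from Jun and beyond the point where its contacts fall off.

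In the Junb window chr19:25500001-25600000 with the next bin changed by -0.23 ± 0.06 (SE, edgeR adjusted p = 0.0150), from 1094 and 993 scaled contacts to 864 and 909. The long pair chr19:26400001-26500000 with chr19:27900001-28000000 rose by 0.40 ± 0.10 (SE, edgeR adjusted p = 0.0352), from 188 and 205 to 290 and 228. The long pair leaned on Lenti-AS 1, without which the log2 fold change was 0.21 (edgeR adjusted p = 0.740). DESeq2 called none of the 4 (adjusted p = 1.00 in each). In edgeR's test no pair passed without Lenti-GFP 1, and 1 passed without Lenti-AS 1 and 1 without Lenti-AS 2. Without Lenti-GFP 2 there were 4, but the Jun pair from chr5:113400001 (adjusted p = 0.107) and the long Junb pair (0.0676) were not among them. That Jun pair lost its call whichever library was left out (0.107 to 0.338). When the cis contacts of both bins entered the offsets, the 3 rises became log2 fold changes of 0.07 and 0.14 in Jun and 0.13 in Junb that did not pass and the Junb fall turned into a rise of 0.23 (edgeR adjusted p = 0.0259).

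Pairs that do include the bin of a gene numbered 90, and none passed without a replicate block, with 10 at an unadjusted p below 0.05, all lower in Lenti-AS, where 8.92% of all pairs stood (4.19% higher and 4.73% lower). DESeq2 called none of those it gave an adjusted p. For Fosb the pair of its bin with the next to the right held 389 and 385 scaled contacts in Lenti-GFP and 321 and 308 in Lenti-AS, a log2 fold change of -0.30 ± 0.08 (SE, edgeR adjusted p = 0.0742, or 0.0438 with the replicate number as a block). With the cis contacts of both bins in the offsets this Fosb difference became -0.00 (edgeR adjusted p = 0.999), and in the authors' pooled balanced matrices it was -0.05. For Fos the pair 600 kb to the right held 34.2 and 24.7 against 9.35 and 16.0, a log2 fold change of -1.20 ± 0.34 (SE, edgeR adjusted p = 0.0762). In both cases the groups did not overlap, but each pair was chosen as the lower one of lowest p at its gene, so the split adds no support. For Jund the lowest p among lower pairs belonged to the pair 500 kb to the right (log2 fold change -0.81, edgeR adjusted p = 0.365, and between -1.37 and -0.39 with 1 library left out), for Junb to that 1500 kb to the left (-1.04, edgeR adjusted p = 0.449) and for Jun to that 400 kb to the left (-0.48, edgeR adjusted p = 0.545). Among higher pairs the log2 fold change of lowest p was 0.12 for Jun, 0.07 for Junb, 0.26 for Jund, 0.58 for Fos and 0.59 for Fosb, with edgeR adjusted p from 0.686 to 0.751.

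The windows differed in the direction of most of their pairs. In the Fosb window 120 of 156 pairs were lower in Lenti-AS with a median log2 fold change of -0.20, and in the Jund window 99 of 117 with a median of -0.19. In Fos it was 109 of 176 with -0.12, in Junb 66 of 122 with -0.03, and in Jun 73 of 159 with 0.02, while the median over all pairs of the genome was 0.00 after rounding. Pairs that share a bin are not independent, so these counts are a description. The offsets hold distance only, and the cis contacts of the bins were also lower in the Fosb and Jund windows, as given below. At an unadjusted p below 0.05 stood 21 of the Fosb pairs and 21 of the Jund pairs, all of them lower. In Fos it was 26 (5 higher and 21 lower), in Junb 15 (2 and 13) and in Jun 9 (6 and 3). Of all pairs 8.92% stood there (4.19% higher and 4.73% lower).

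**Figure D3:**
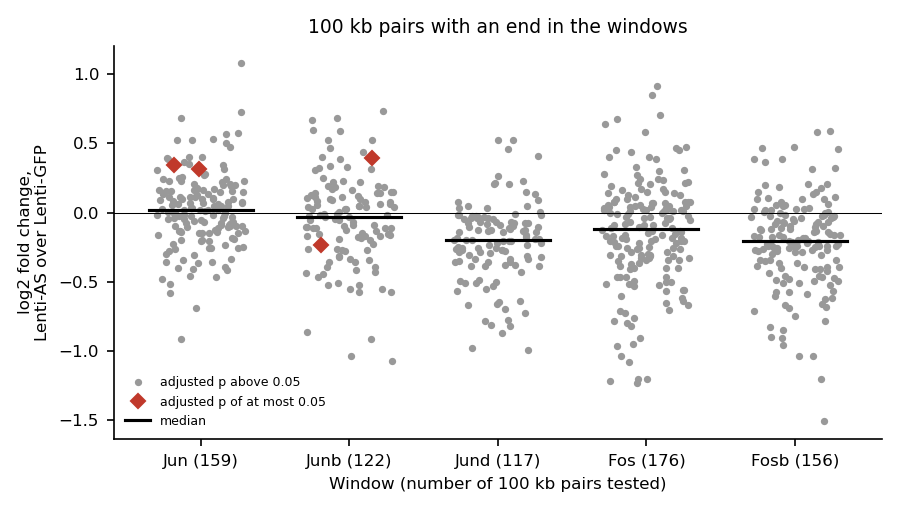
log2 fold change, Lenti-AS over Lenti-GFP, of each pair of 100 kb bins with an end in a window, with diamonds for the 4 pairs past an adjusted p of 0.05 and a bar at the median of each window. The medians of Jund and Fosb lie near -0.2 and those of Jun and Junb near 0. Fold changes are scaled by distance only.

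Contacts inside a window were lower in Lenti-AS for Jund and Fosb. Those from 20 kb to 1 Mb in the Jund window were 0.33 and 0.22 on the log2 scale above the genome mean in Lenti-GFP and 0.14 and 0.08 in Lenti-AS, a difference of -0.16. In the Fosb window they were 0.07 and -0.00 against -0.07 and -0.09, a difference of -0.12. In the Jun window they were 0.39 and 0.37 against 0.42 and 0.44, a difference of 0.05. The groups did not overlap in these 3 windows and did in Junb (-0.01) and Fos (-0.00). The share of windows over the genome with the groups apart was not counted, so these splits are a description. Counted from 50 kb on, the Fos groups lay apart as well, at 0.40 and 0.41 against 0.39 and 0.38, a difference of -0.02. The two-sided exact permutation p was 0.333 for Jund, Fosb and Jun and 1 for Junb and Fos, and no p below 0.333 can be reached. In the Jund and Fosb windows the total contacts of the bins moved with this result. Their cis contacts, per 1000000 contacts of the library, were 548 and 507 against 478 and 465 for Jund and 616 and 589 against 542 and 546 for Fosb, and their trans contacts were lower as well, 149 and 140 against 133 and 130 and 92.6 and 87.2 against 83.8 and 81.8. With an expectation that holds the cis contacts of both bins, the difference in Jund became 0.12, that in Fosb 0.14 and that in Jun -0.02. Lower contact inside these windows and fewer contacts recovered from their bins cannot be told apart.

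The insulation score measures how many contacts cross a bin within 200 kb, as log2 relative to the chromosome, with low values at domain borders. Jun lay beside a strong border. Its bin had -1.48 and -1.40 in Lenti-GFP and -1.39 and -1.32 in Lenti-AS, and a border 70 kb to the left was found in all 4 libraries, with none to the right of the gene inside the window. It was the nearest border in Lenti-GFP 2 and Lenti-AS 1, with a prominence of 2.71 and 2.81, whereas Lenti-GFP 1 and Lenti-AS 2 also had a shallow one 10 kb to the left, with a prominence of 0.217 and 0.212. Junb also lay low, with -1.06 and -1.08 against -1.10 and -0.97, and had a border 10 kb to its left in every library. The deepest point of its window, 160 kb to the right, reached -3.07 and -2.38 in Lenti-GFP and -2.68 and -3.00 in Lenti-AS, where the profile of Junb also broke off and where the same doubt about the order of rn6 applies. Fos had -0.27 and -0.23 against -0.28 and -0.40, with borders 20 kb to the right and 150 kb to the left in all 4 libraries, the places between which its contacts were most frequent. Fosb had -0.44 and -0.50 against -0.51 and -0.57 with borders 10 kb to the left and 70 kb to the right. Jund had -0.08 and -0.04 against -0.13 and -0.12, with its nearest borders 70 to 90 kb away.

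None of the 15 gene bins changed in insulation by limma (lowest adjusted p = 0.914), against 0.000408% of 245062 bins past the adjusted threshold, and 1 had an unadjusted p below 0.05 against 5.43% of all bins. That bin is chr6:109310001-109320000 beside Fos, at -0.48 and -0.45 in Lenti-GFP and -0.55 and -0.65 in Lenti-AS, a difference of -0.13 ± 0.05 (SE). At most 0.13 separated the group means at any gene bin, whereas the genes spanned more than 1 on the same scale.

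**Figure D4:**
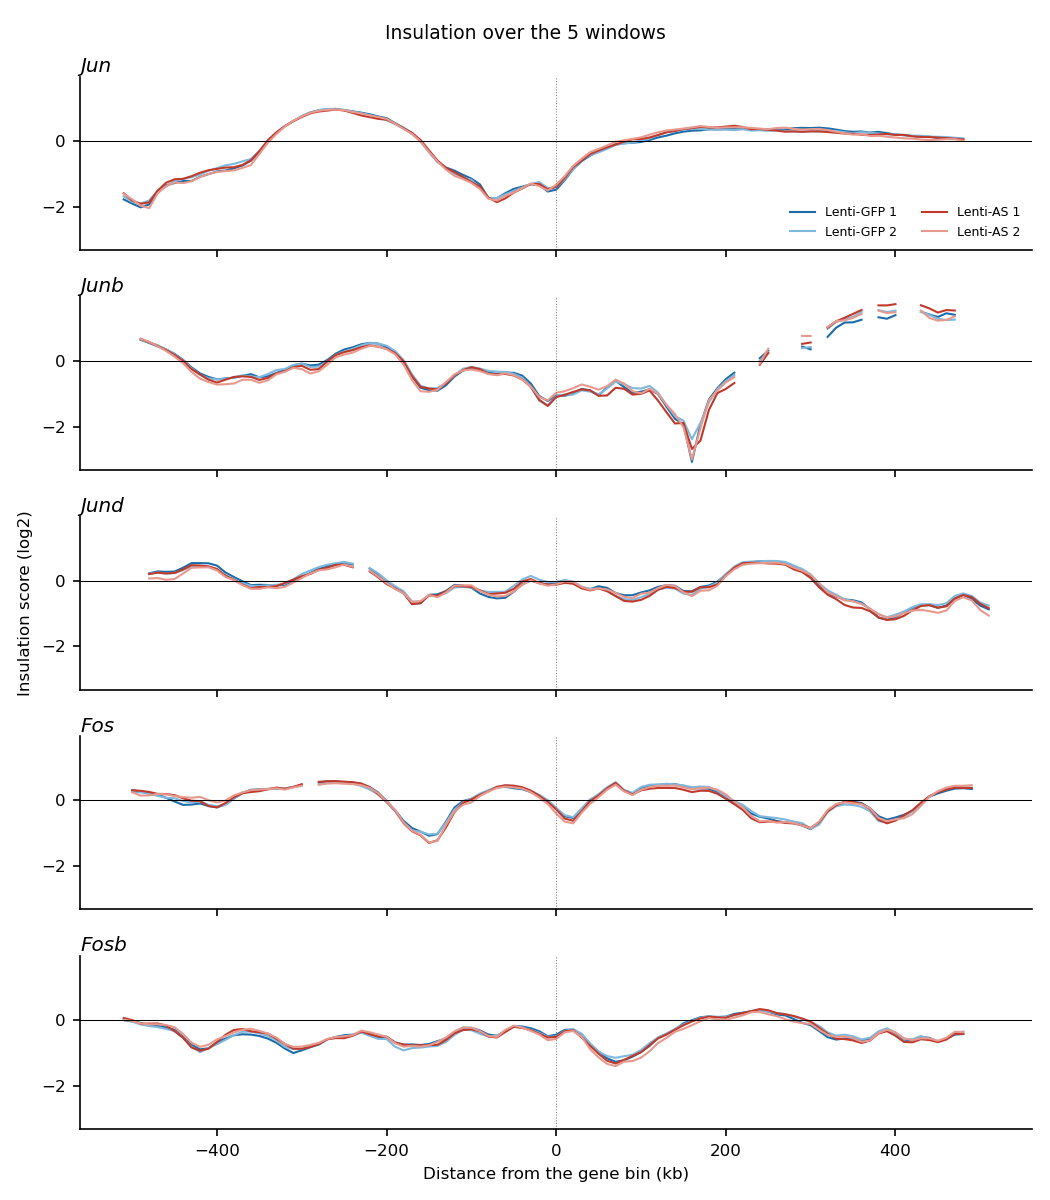
Insulation score (log2, 200 kb window) over the 5 windows against the distance from the gene bin in kb, with 1 line per library and gaps where bins were left out. Low points near Jun, Junb and Fos are at the same place in all 4 libraries, and the lines of both groups lie on top of each other over most of each window.

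The first eigenvector of the contact correlations at 100 kb splits each chromosome into 2 kinds of chromatin, and its sign is arbitrary. The positive side was set here as the one that correlates with trans contacts, those between chromosomes, over all bins, but weakly (r = 0.13), so the sign does not say which kind has more of them at a given gene. All 5 genes were on the positive side in all 4 libraries. Each chromosome has its own eigenvector, so the order of the genes compares separate scales. On the chromosome of Fosb it explained only between 3.62% and 5.46% of the variance over the 4 libraries, on those of the other genes between 8.40% and 16.6%, and on each of the 5 chromosomes less in both Lenti-AS libraries than in both of Lenti-GFP. Fosb was highest with 1.52 and 1.60 in Lenti-GFP and 1.43 and 1.42 in Lenti-AS, then Jun with 1.29 and 1.31 against 1.10 and 1.23, Junb with 1.23 and 1.28 against 1.07 and 1.21, Jund with 0.88 and 0.91 against 0.94 and 0.92, and Fos with 0.29 and 0.30 against 0.30 and 0.30. In Fosb, Jun and Junb both Lenti-AS libraries lay below both of Lenti-GFP, by 0.14, 0.14 and 0.12 on average, and in Jund and Fos both lay above, by 0.03 and 0.01. Over all bins the median difference was -0.046. At an unadjusted limma p below 0.05, 2415 bins were lower in Lenti-AS and 433 higher. After quantile normalization the median was 0.004, with 1068 lower and 980 higher. How many bins had the groups apart was not counted. Jun and Junb overlapped each other, while Fosb, Jund and Fos were each apart from the rest. No gene passed in limma (lowest adjusted p = 0.488, none at an unadjusted p below 0.05), and neither did any of 26013 bins over the genome (0%), of which 10.9% had an unadjusted p below 0.05.

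**Figure D5:**
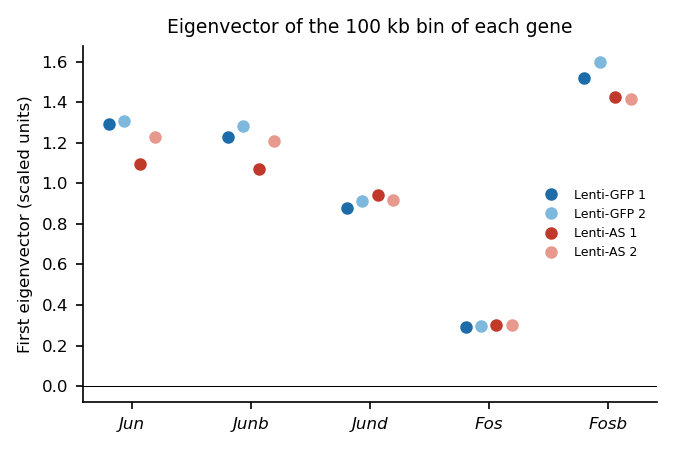
First eigenvector (scaled units, 100 kb bins) of the bin that holds each gene, with 1 point per library for Lenti-GFP (blue) and Lenti-AS (red). Fosb lies highest at 1.42 to 1.60 and Fos lowest at 0.29 to 0.30, and all points are above 0.

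Contacts with other chromosomes also differed among the genes. Trans contacts made up 22.2% (95% Wilson interval 20.6 to 23.8) and 24.7% (23.2 to 26.4) of all contacts of the Junb bins in Lenti-GFP and 21.2% (19.4 to 23.1) and 21.5% (19.6 to 23.4) in Lenti-AS. For Jund the share was between 19.6% and 21.5%, for Fos between 13.5% and 16.7%, for Fosb between 13.2% and 14.3% and for Jun between 7.86% and 9.22% over the 4 libraries. The intervals cover counting error only. Junb had 2052 trans contacts in the 4 libraries, 2.04 times the genome median, with 99.1% of positions lower, whereas Fosb with 834 and Jun with 849 lay below the median of 1004. None of the 15 gene bins changed in edgeR's test (lowest adjusted p = 0.279, in a Junb bin with a log2 difference of -0.36), against 0.119% of 257848 bins past the adjusted threshold. DESeq2 called none, and 4 had an unadjusted p below 0.05 in edgeR's test against 9.11% of all bins. The fitted log2 difference was below 0 in all 15, from -0.36 to -0.00. Per 1000000 contacts of the library, the trans level of the Junb bins was 6.18 ± 0.0431 under Lenti-GFP against 5.37 ± 0.0702 under Lenti-AS, and that of the Jund bins 4.87 ± 0.282 against 4.16 ± 0.0971 (SD, n = 2), and in both genes the groups did not overlap. On this scale the means in Lenti-GFP and Lenti-AS were 4.78 and 4.22 for Fos, 2.47 and 2.34 for Jun, and 2.37 and 2.39 for Fosb.

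The 5 genes lie on 5 chromosomes, so contacts between their windows could be counted directly. Over the 10 pairs of windows there were 110 and 115 contacts in Lenti-GFP and 83 and 72 in Lenti-AS. This was 1.67 and 1.60 times the number that their trans contacts give in Lenti-GFP and 1.80 and 1.71 times in Lenti-AS, a difference of 0.10 on the log2 scale (two-sided exact permutation p = 0.333). The groups did not overlap, on counts this small. Jund and Fosb had the most for their trans contacts, 63 contacts or 3.60 times the expected number, with 99.3% of 3632934 pairs of 1 Mb tiles on different chromosomes lower, followed by Junb and Jund with 102 contacts or 2.63 times (97.6% lower). Jun had fewest for its trans contacts with Junb, 13 contacts or 0.48 times, then with Jund, 16 contacts or 0.82 times, and with Fosb, 11 contacts or 0.90 times, and 1.84 times with Fos on 30 contacts. Lenti-GFP 1 held 8 of the 11 contacts of Jun with Fosb, so the order of the 3 lowest among the pairs of Jun is not settled. Junb with Fos had 0.87 times on 28 contacts. The median over all tile pairs was 0.87, and 10% lay above 1.77.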

How the data were processed

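Hi-C was measured in 4 libraries of primary rat Schwann cells, grouped by the labels. The authors made the deposited 10 kb matrices of raw counts, 1 per library, with HiC-Pro (per the labels, which also name rn6 and Rnor_6.0), and these counts carry no normalization. The authors also merged and balanced the libraries of a group, and this deposited signal entered 1 alternative only. The number of each bin came from the deposited bin tables. The 100 kb matrices were not used.

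Bins with under 25% of the median cis contacts were left out of cis results. Loops (q of at most 0.05, 50 kb to 2 Mb) were called per library with a negative binomial regression in place of HiCDCPlus. Counts were tested with edgeR 4.0.16 (DESeq2 1.42.0 as an alternative), with offsets per distance for pairs (100 kb pairs averaging 10 or more contacts) and TMM factors for bins, and insulation and eigenvectors with limma 3.58.1, each adjusted over the whole genome. A value per library was compared by an exact permutation test. Scripts were tested on simulated data. For the test of loops between the groups only large changes at the loops with most contacts were simulated, so smaller ones were not tried. Python 3.11.15, numpy 2.4.6 and scipy 1.17.1 were used. Depth ran from 70488877 to 110770015 contacts, and duplicate removal is not given in the sources used here.

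All 5 genes entered every test, while the promoters cover Jund, Junb and Fosb. Given are all 100 kb pairs past the threshold, the pair of each gene of lowest p in each direction, and the 2 loops at a gene with most contacts over expectation. The gene windows, lists and tests were chosen with earlier results of these data known. Other AP-1 and immediate early genes were not analysed here, since no rn6 annotation was used.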

Additional observations from a re-analysis of the deposited data

How the results depend on the processing

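The counts of 0 for loops after adjustment, bands, trans contacts, insulation and eigenvectors at the genes were 0 under all alternatives run. The 4 called 100 kb pairs became 0 with DESeq2, 0 without a filter on low counts, 2 with bins of 50 kb and between 0 and 4 with 1 library left out, and the 4 without Lenti-GFP 2 included only 2 of the original ones. Differences of replicates 1 and 2 correlated at r = 0.04 between the groups over 72252 pairs. Libraries of a group differed by little more than counting error, so this does not settle whether replicate numbers pair them. With a replicate block 491 pairs passed as higher and 995 as lower over the genome, against 289 and 725 without it. In the windows 9 pairs passed with the block, Fosb with its right neighbour among them (-0.30, edgeR adjusted p = 0.0438). The block changed no other call at a gene. That Fosb value was -0.0019 with the cis contacts of both bins in the offsets. Loops under the study's rule, 23, ranged from 24 to 38 with 1 library left out, the highest without Lenti-GFP 2, and were 4 with DESeq2, an alternative chosen after seeing the data.

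The difference in loops at the gene bins, -4, was 4 after thinning (3 for Jun) and ranged from -8.5 to 0.5 with 1 library left out. With the cis contacts of both bins in the expectation, contacts inside the windows reversed to -0.022 in Jun, 0.12 in Jund, 0.0088 in Fos and 0.14 in Fosb, and with the mean of the same chromosome to 0.028 in Junb and 0.0022 in Fos. With 1 library left out they ranged from 0.034 to 0.061 in Jun, -0.034 to 0.021 in Junb, -0.22 to -0.11 in Jund, -0.0064 to 0.0012 in Fos and -0.15 to -0.08 in Fosb. Trans contacts between windows ranged from 0.07 to 0.14, and were 0.74 within 200 kb of the genes, on 30 contacts. In the authors' pooled balanced matrices, an alternative chosen after seeing the data with 1 value per group, the Jun pair from chr5:113400001 was -0.013 and the higher Jund pair -0.90, and the other called pairs shrank, that of Jun from chr5:113500001 from 0.31 to 0.11 and those of Junb from -0.23 to -0.018 and from 0.40 to 0.19. With the cis contacts of both bins in the offsets, the Junb pair from chr19:25500001 was 0.23 and the weaker Fos loop -0.17. With 1 library left out, the higher Fos pair ranged from -0.073 to 1.01, the weaker Fos loop from -0.050 to 0.35 and the Jun loop to chr5:114890001 from -0.23 to 1.14. The cause was not tested.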
